A study of Mus musculus with 6 samples.

Results

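The proteasome genes of mouse bone marrow mesenchymal stem cells were described after an siRNA against the formin Dia2 (product of Diaph3) or a control siRNA. The genes were all rows of the deposited gene count table whose symbol reads Psm, a letter from a to g and a digit. The rule found 49 of 23358 rows. Of these, 16 encode subunits of the core particle, 3 the induced subunits of the immunoproteasome, 22 regulatory particle subunits, activators or an inhibitor, and 7 assembly chaperones. The remaining gene, Psmc3ip, matches by symbol but encodes a cofactor of meiotic recombination and no subunit, so it was counted apart. All 49 passed the filter on low counts.

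The cells came from the marrow of C57BL/6 mice, were used at passage 6 to 12 and adhered for 24 h before overnight transfection. The Dia2 group received an siRNA against Dia2 at 50 nM and the control group a non-targeting siRNA. RNA was taken 24 h after the medium was replaced, and each group has 3 libraries. Nothing in the labels says that the libraries of a group were separate cultures. The p-values therefore set group differences only against the spread of these libraries, and that spread may be technical. The siRNA is a transient knockdown, not a deletion, and 1 targeting sequence was used. Diaph3 stood at 7.76 ± 0.532 CPM in the Dia2 libraries and at 83.2 ± 2.7 CPM in the control libraries (SD, n = 3 each). CPM, counts scaled to a common library total, carry the TMM factor that balances library composition. Total counts ran from 78529650 to 95573070 in the Dia2 libraries and from 70538768 to 110006338 in the control libraries. Of 12 mesenchymal markers Thy1 was near 0 in every library, with at most 10 counts, and Lepr stayed between 1.14 and 1.49 CPM, while Pdgfra, Pdgfrb, Cd44 and Itgb1 were abundant. Dia2 replicate 1 and control replicate 3 stood apart within their groups: the ribosomal precursor Rn45s held 10.9% and 11.7% of their counts, against 6.0% to 7.41% in the other 4 libraries.

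The proteasome is the protease that degrades proteins tagged with ubiquitin. Its barrel-shaped core particle is a stack of alpha and beta rings, and Psmb5, Psmb6 and Psmb7 carry the active sites facing the inner chamber. A regulatory particle caps the barrel: a base with a ring of ATPases unfolds the substrate and a lid removes the ubiquitin. In immune cells and under interferon, Psmb8, Psmb9 and Psmb10 take the places of Psmb5, Psmb6 and Psmb7 in newly built cores and change which peptides are made for display on MHC class I. Subunits are made in matched amounts, and the transcription factor Nrf1 (Nfe2l1) raises their mRNAs together when proteasome activity is short.

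Proteasome genes were lower with Dia2 siRNA in nearly every part of the complex, each by less than 2-fold. Of the 48 genes counted, 37 (77.1%) were lower past an adjusted p of 0.05 in edgeR's quasi-likelihood test, none was higher, and 11 did not pass. Over all 14151 genes tested 59.2% passed, 29.9% lower and 29.3% higher, so a single gene's fall was common and the members' share stood above that background. Abundant genes fell more often: of 7168 genes with a mean of at least 20 CPM 39.2% were lower, against 33 of 40 proteasome genes (82.5%) at that level. The Dia2 libraries all lay below the control libraries for 40 of the 48 genes and all above for 0, where 32.2% and 32.3% of all genes tested did so. The median log2 fold change of the 48 genes was -0.29, and that of all genes tested was 0.005. Cell identity markers moved as well: of 11 mesenchymal markers tested 10 were higher, with a summed level of 11704 to 12162 CPM in the Dia2 libraries and 7288 to 8196 CPM in the control libraries, and their part in the proteasome values was not tested. In bulk RNA, less RNA per cell and fewer cells of a kind cannot be told apart.

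Leaving out any 1 library gave 35 to 38 lower genes, where 25.7% to 32.3% of all genes tested in those fits were lower. Without Dia2 replicate 1 and control replicate 3, the libraries richest in Rn45s, 39 of 48 were lower and 1 was higher. In that fit 32.1% of all genes tested were lower. Without control replicate 3 alone, 38 were lower and 2, Psme4 and Psmb11, higher, where 32.3% of all genes tested were lower. The constitutive subunits of core, base and lid, 31 genes, summed to 4029, 3981 and 3981 CPM in the Dia2 replicates, against 4955, 4874 and 4720.1 CPM in the control replicates. The 3 Dia2 sums lay close together and all below the control sums, of which replicate 3 was the lowest. Among the 37 genes that fell, control replicate 3 was the lowest control library for 24.

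**Figure D1:**
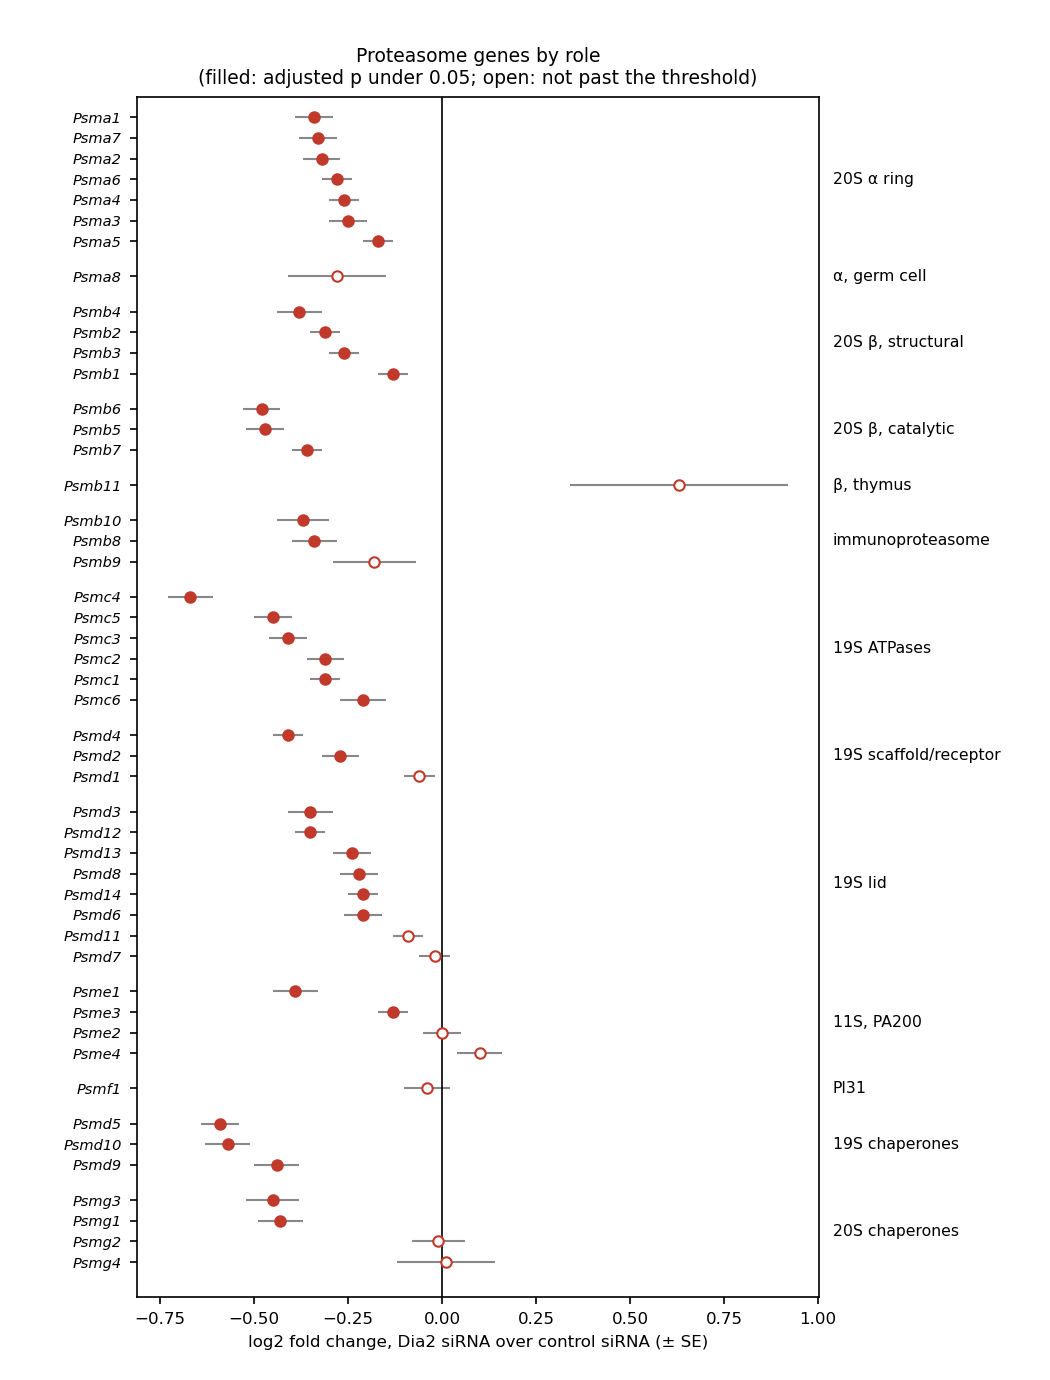
Log2 fold change (Dia2 siRNA over control siRNA, horizontal axis) with its SE for 48 proteasome genes, grouped by role down the page; filled points passed an adjusted p of 0.05. All filled points lie left of 0, from -0.67 for Psmc4 to -0.13 for Psmb1 and Psme3, and the 11 open points include Psmd7, Psme2 and Psmg2 near 0.

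In the core particle, all 14 constitutive subunits were lower, where 29.9% of all genes tested were lower. Their log2 fold changes were -0.48 to -0.13, with a median of -0.31. The alpha ring, which gates entry to the chamber, moved within a narrow range. Its 7 members had log2 fold changes of -0.34 (Psma1) to -0.17 (Psma5). Psma1 was at 86.1, 78.4 and 76.8 CPM in the Dia2 replicates, against 102, 97.8 and 105 CPM in the control replicates. Psma5 was at 110.3, 103 and 104 CPM in the Dia2 replicates, against 120.4, 116 and 120.4 CPM in the control replicates. In both cases the groups did not overlap, although the highest Dia2 library came close to the controls for Psma5. Psma2, Psma3, Psma4, Psma6 and Psma7 lay between these 2 in fold change.

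The catalytic subunits Psmb6 and Psmb5 had the largest falls of the core, and the structural beta subunit Psmb1 the smallest. Psmb5 carries the chymotrypsin-like activity, which cuts after large hydrophobic residues and is the main target of proteasome inhibitors. It stood at 109, 108 and 110.0 CPM in the Dia2 replicates, against 160.1, 154 and 139 CPM in the control replicates. The Dia2 libraries were nearly equal, and the controls were higher and more spread out, with replicate 3 lowest. Its mean was 109 ± 0.802 CPM with Dia2 siRNA and 151 ± 10.8 CPM with control siRNA (SD, n = 3 each), which is a log2 fold change of -0.47 ± 0.05 (SE; edgeR adjusted p = 1.07e-05).

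Psmb6 carries the caspase-like activity, which cuts after acidic residues. It stood at 72.2, 69.8 and 68.7 CPM in the Dia2 replicates, against 102, 101 and 90.4 CPM in the control replicates (log2 fold change -0.48 ± 0.05, edgeR adjusted p = 1e-05). Psmb7 carries the trypsin-like activity, which cuts after basic residues. It stood at 137, 134 and 136 CPM in the Dia2 replicates, against 180.4, 173 and 168 CPM in the control replicates (-0.36 ± 0.04, edgeR adjusted p = 2.18e-05). The groups were apart for all 3 catalytic genes. Of the structural beta subunits, Psmb4, Psmb2 and Psmb3 had log2 fold changes of -0.38, -0.31 and -0.26. Psmb1 had the highest mean level per length of the 31 constitutive subunits that match the symbol rule. It averaged 191 ± 2.53 CPM with Dia2 siRNA and 209.9 ± 1.45 CPM with control siRNA, or -0.13 ± 0.04 (edgeR adjusted p = 0.0137). Its call was lost without Dia2 replicate 2 (adjusted p = 0.0792) or 3 (0.0604) and with upper-quartile scaling (0.0519), at values of -0.13 to -0.10.

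Tissue-restricted core subunits were scarce. Psma8, the alpha subunit of male germ cells, stood at 1.89, 1.90 and 2.03 CPM in the Dia2 replicates, against 2.51, 2.07 and 2.50 CPM in the control replicates. It did not pass (log2 fold change -0.28 ± 0.13, edgeR adjusted p = 0.0867), but passed without control replicate 2 (-0.37, adjusted p = 0.0439). Psmb11, the catalytic subunit of thymic epithelium, had 60, 62 and 50 counts in the Dia2 replicates, against 44, 28 and 38 in the control replicates. The groups overlapped in CPM. Its log2 fold change was 0.63 ± 0.29 (adjusted p = 0.0781), and 0.83 without control replicate 3 (adjusted p = 0.0352).

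The immunoproteasome subunits were present at low levels and none rose. Psmb8, the counterpart of Psmb5, stood at 13.6, 12.4 and 12.2 CPM in the Dia2 replicates, against 15.8, 16.4 and 16.2 CPM in the control replicates. Its groups were apart, with means of 12.7 ± 0.755 and 16.1 ± 0.314 CPM (SD, n = 3 each), which is a log2 fold change of -0.34 ± 0.06 (SE; edgeR adjusted p = 0.000508). Psmb10, the counterpart of Psmb7, stood at 15.3, 14.4 and 15.9 CPM in the Dia2 replicates, against 20.7, 20.6 and 17.8 CPM in the control replicates (-0.37 ± 0.07, edgeR adjusted p = 0.000747). Psmb9, the counterpart of Psmb6, stood at 5.29, 4.62 and 4.15 CPM in the Dia2 replicates, against 5.68, 5.45 and 4.64 CPM in the control replicates. Its groups overlapped and it did not pass (-0.18 ± 0.11, edgeR adjusted p = 0.211). Without the libraries richest in Rn45s, Psmb9 was lower at -0.35 (adjusted p = 0.0117). Its adjusted p over the other alternatives ranged from 0.0505 to 0.534.

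Blood cells are rich in immunoproteasome, and the summed level of blood markers was also lower, but not every marker was. Of 12 blood markers 5 were tested, 4 were lower and none higher, where 29.9% of all genes tested were lower. The summed level of the 12 was 10.5 to 10.9 CPM in the Dia2 libraries and 18.1 to 19.5 CPM in the control libraries. Most of that level was Cd14, and 8 of the 12 averaged under 1 CPM over all libraries. Lyz2 was tested and did not pass, with a log2 fold change of 0.48 ± 0.23 and overlapping groups (edgeR adjusted p = 0.0935). The leukocyte marker Ptprc had at most 8 counts in any library, and Tyrobp and Cd3e had 0 in all 6. Ptprc, Itgam, Laptm5 and Adgre1, all near 0, had higher means in the Dia2 libraries, and Cd79a, also near 0, a lower mean. Endothelial markers summed to 0.812 to 0.958 CPM in the Dia2 libraries and 1.34 to 1.51 CPM in the control libraries, with 1 of 3 tested lower. The part of blood cells in the immunoproteasome values was not tested.

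**Figure D2:**
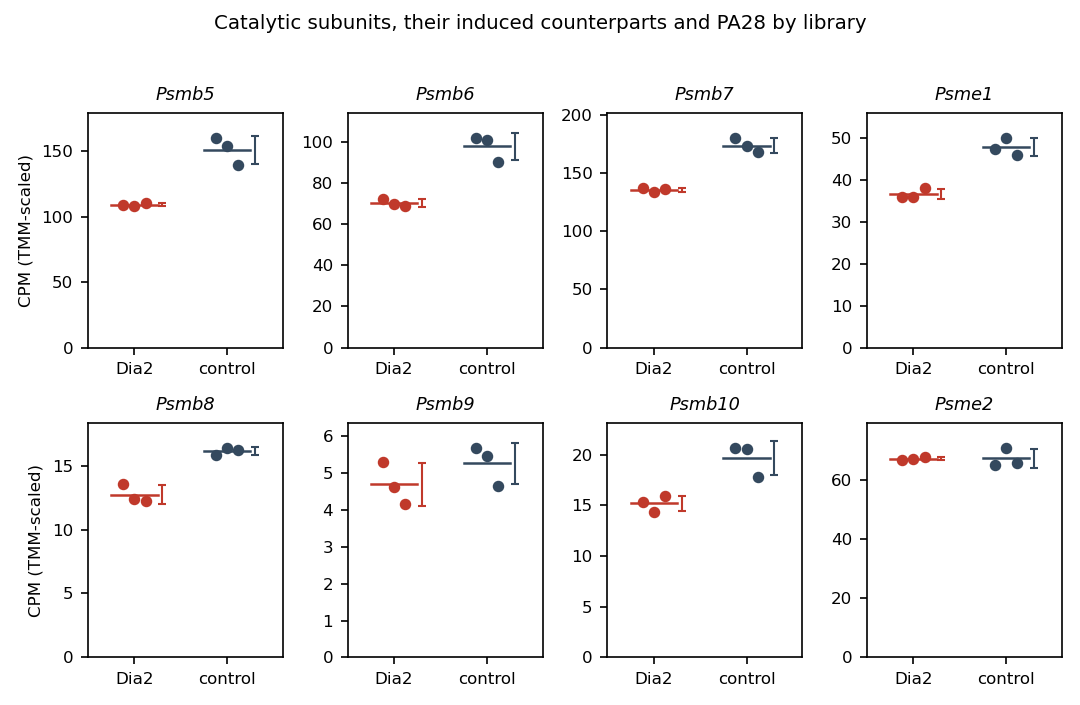
CPM (TMM-scaled, vertical axis from 0) of the constitutive catalytic subunits, their induced counterparts and Psme1 and Psme2 in each library; lines mark means and bars the SD of 3 libraries. The Dia2 libraries lie below the control libraries in every panel except those of Psmb9 and Psme2, where the groups overlap.

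Set per length, the constitutive catalytic subunits exceeded their induced counterparts in every library. RPKM is the deposited value per kilobase of the listed coding length and library total. It averaged 104 for Psmb5 and 8.63 for Psmb8 in the Dia2 libraries, and 148 and 11.2 in the control libraries. Psmb8 made up 8.13%, 7.53% and 7.31% of the Psmb5 and Psmb8 pair in the Dia2 replicates, against 6.56%, 7.07% and 7.65% in the control replicates (exact two-sided permutation p = 0.3). Psmb10 made up 7.87 ± 0.31% of its pair in the Dia2 libraries and 7.95 ± 0.44% in the control libraries (SD, n = 3 each; exact permutation p = 0.8). In these pairs the groups overlapped. Psmb9 made up 8.61%, 7.85% and 7.2% of the Psmb6 and Psmb9 pair in the Dia2 replicates, against 6.67%, 6.5% and 6.2% in the control replicates. Every Dia2 library was higher, and the exact p of 0.1 is the smallest that 3 against 3 libraries can give. The adjusted p over the 3 pairs was 0.3, 0.45 and 0.8 for Psmb9, Psmb8 and Psmb10. Together, the induced subunits made up 8.12%, 7.61% and 7.66% of the summed RPKM of the 6 catalytic subunits in the Dia2 replicates. In the control replicates they made up 7.18%, 7.45% and 7.28%. The groups did not overlap in this share, which includes the Psmb9 values and was not tested.

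In the base of the regulatory particle, the ATPase Psmc4 had the largest fall of all proteasome genes. Psmc4 encodes Rpt3, a member of the ATPase ring that threads substrates into the core. It stood at 67.1, 66.0 and 69.2 CPM in the Dia2 replicates, against 114, 111 and 97.0 CPM in the control replicates. The Dia2 libraries were tight and all below the lowest control, replicate 3. The means were 67.4 ± 1.65 CPM with Dia2 siRNA and 107 ± 8.89 CPM with control siRNA (SD, n = 3 each), which is a log2 fold change of -0.67 ± 0.06 (SE; edgeR adjusted p = 1.35e-06), or 1.59-fold lower. All 6 ATPases were lower past the threshold, where 29.9% of all genes tested were lower. After Psmc4 came Psmc5 at -0.45, Psmc3 at -0.41, Psmc1 and Psmc2 at -0.31, and Psmc6 at -0.21. Psmc6 stood at 122, 119 and 113 CPM in the Dia2 replicates, against 129, 129 and 151 CPM in the control replicates, and without control replicate 3, the highest, its value was -0.13 (adjusted p = 0.0027). Per length, Psmc4 made up 9.89%, 9.6% and 10.1% of the 6 ATPases' summed RPKM in the Dia2 replicates, against 12.6%, 12.4% and 11.3% in the control replicates. The groups did not overlap, in a ratio that is free of scaling between libraries but was chosen after its values were seen.

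The base also holds the large scaffolds Psmd1 (Rpn2) and Psmd2 (Rpn1) and the ubiquitin receptor Psmd4 (Rpn10). Psmd4 and Psmd2 were lower and Psmd1 did not pass, and the differences between them were not tested. Psmd4 stood at 92.7, 91.8 and 93.9 CPM in the Dia2 replicates, against 126, 124 and 119.5 CPM in the control replicates (log2 fold change -0.41 ± 0.04, edgeR adjusted p = 5.33e-06). Psmd2 stood at 423, 416 and 417 CPM in the Dia2 replicates, against 523, 518 and 478 CPM in the control replicates (-0.27 ± 0.05, edgeR adjusted p = 0.000414). Psmd1 stood at 283, 279.6 and 277 CPM in the Dia2 replicates, against 292, 290.2 and 295 CPM in the control replicates. Its groups were apart by a small margin and it did not pass (-0.06 ± 0.04, edgeR adjusted p = 0.202). Psmd1 made up 38.5 ± 0.16% of the summed RPKM of Psmd1 and Psmd2 in the Dia2 libraries and 35.2 ± 1.3% in the control libraries (SD, n = 3 each), without overlap, a ratio also chosen after its values were seen.

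Of 8 lid subunits that match the symbol rule 6 were lower and 2 did not pass, where 29.9% of all genes tested were lower. Psmd3 and Psmd12, scaffold subunits of the lid, both had log2 fold changes of -0.35. Psmd14 (Rpn11), the metalloprotease that cuts ubiquitin chains from the substrate, stood at 103, 99.5 and 97.6 CPM in the Dia2 replicates, against 117, 113 and 116 CPM in the control replicates (-0.21 ± 0.04, edgeR adjusted p = 0.00129). Psmd7 (Rpn8), its inactive partner, stood at 139.6, 134 and 134 CPM in the Dia2 replicates, against 142, 138 and 134 CPM in the control replicates. The groups overlapped for Psmd7 (-0.02 ± 0.04, edgeR adjusted p = 0.669). Psmd13, Psmd8 and Psmd6 had values of -0.24, -0.22 and -0.21. Psmd11 (Rpn6), which clamps the lid to the core, had -0.09 ± 0.04 (adjusted p = 0.0728), and passed without control replicate 3 (-0.10, adjusted p = 0.0147).

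**Figure D3:**
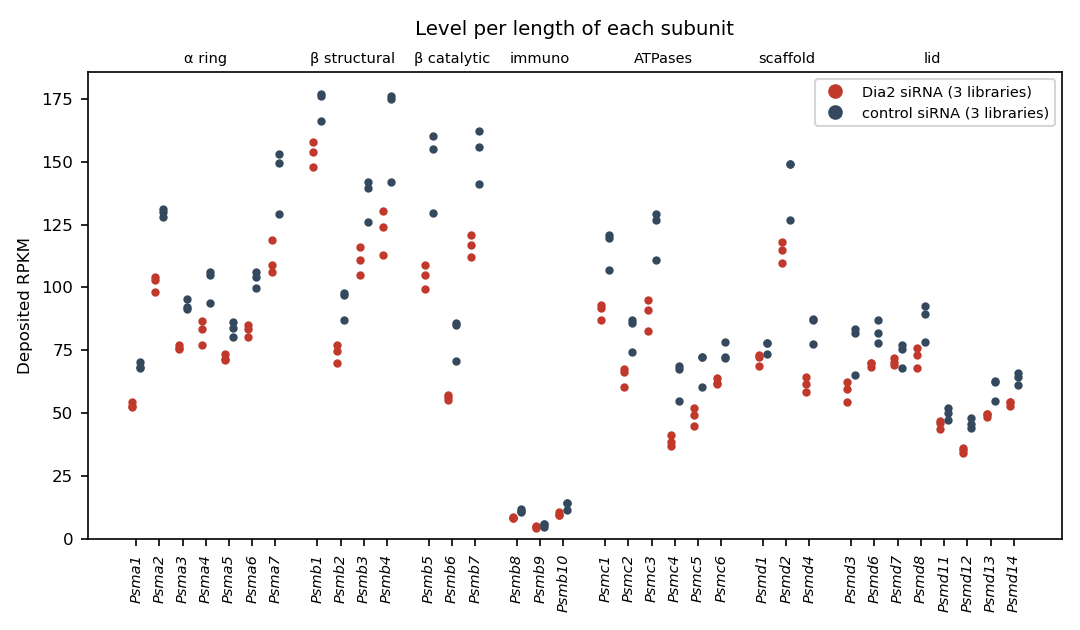
Deposited RPKM (vertical axis from 0) of 31 constitutive and 3 induced subunits in each library, Dia2 siRNA left of control siRNA for each gene. Psmb8, Psmb9 and Psmb10 lie at 14.2 RPKM or below, whereas constitutive subunits lie at 34.1 RPKM or above.

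Levels per length of the 31 constitutive subunits covered a several-fold range in both groups. RPKM averaged from 35.2 for Psmd12 to 153 for Psmb1 in the Dia2 libraries, a 4.36-fold range, and from 46.1 to 173 for the same genes in the control libraries, a 3.75-fold range. The coefficient of variation over the 31 genes was 35.7% in both groups. Core subunits were higher than those of the cap, with a median of 92.3 against 62.5 RPKM in the Dia2 libraries and of 117 against 76.6 RPKM in the control libraries. By mean, Psmb6 was the lowest and Psmb1 the highest of the beta ring in both groups, but Psmb1 and Psmb4 did not differ beyond their spread in the control libraries (173 ± 6.19 and 164 ± 19.1 RPKM). Of the 8 lid subunits that match the symbol rule, Psmd12 had the lowest mean, with values that overlapped those of Psmd11 in the control libraries. Psmd8 had the highest of the 8, within its spread of Psmd6 in both groups. Sem1, a lid subunit outside the rule, averaged 201 ± 10.9 RPKM in the Dia2 libraries and 177 ± 9.15 RPKM in the control libraries. The ATPases were led by Psmc1 at 90.5 ± 3.19 RPKM in the Dia2 libraries and by Psmc3 at 122 ± 9.6 RPKM in the control libraries (SD, n = 3 each), and these neighbours did not differ beyond their spread in either group. Psmc4 had the lowest mean of the ATPases, at 39.0 ± 2.29 RPKM in the Dia2 libraries and 63.8 ± 7.8 RPKM in the control libraries; in the control libraries Psmc5 lay within its spread, at 68.3 ± 6.94 RPKM.

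Of 4 genes of alternative caps 2 were lower and 2 did not pass, where 29.9% of all genes tested were lower. Psme1 and Psme2 encode the alpha and beta chains of PA28, an interferon-inducible ring that opens the core without ubiquitin or ATP and is built from both chains. Psme1 stood at 35.9, 35.8 and 38.0 CPM in the Dia2 replicates, against 47.4, 50.0 and 45.8 CPM in the control replicates, without overlap (log2 fold change -0.39 ± 0.06, edgeR adjusted p = 8.62e-05). Psme2 stood at 66.9, 67.1 and 67.8 CPM in the Dia2 replicates, against 65.2, 71.0 and 66.0 CPM in the control replicates. Its Dia2 values lay within the control range (log2 fold change 0.00 at 2 decimals, SE 0.05, edgeR adjusted p = 0.961). Psme1 made up 34.9%, 34.8% and 35.9% of the pair's RPKM in the Dia2 replicates, against 42.1%, 41.3% and 40.9% in the control replicates, a comparison chosen after its values were seen.

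Psme3 encodes the nuclear PA28 gamma and had a small fall of -0.13 ± 0.04 (edgeR adjusted p = 0.0205). That call was lost without Dia2 replicate 1 (adjusted p = 0.0925) or 2 (0.0801), without control replicate 1 (0.0558) and with upper-quartile scaling (0.0781). Psme4 encodes the large cap PA200 and stood at 178, 172 and 160.3 CPM in the Dia2 replicates, against 153, 152 and 171 CPM in the control replicates. Its groups overlapped and it did not pass (0.10 ± 0.06, edgeR adjusted p = 0.161), but it was higher without control replicate 3 (0.15, adjusted p = 0.0018). Psmf1, the inhibitor PI31, averaged 34.4 ± 0.663 CPM in the Dia2 libraries and 35.4 ± 1.21 CPM in the control libraries (SD, n = 3 each; -0.04 ± 0.06, edgeR adjusted p = 0.556).

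All 3 assembly chaperones of the base that match the symbol rule were lower, where 29.9% of all genes tested were lower. Psmd5 (S5b), Psmd9 (p27) and Psmd10 (gankyrin, which binds the Psmc4 product) each hold ATPase subunits while the base is built, and none stays in the finished proteasome. Psmd5 stood at 59.1, 54.8 and 54.3 CPM in the Dia2 replicates, against 85.4, 82.0 and 85.3 CPM in the control replicates (log2 fold change -0.59 ± 0.05, edgeR adjusted p = 8.52e-07). Psmd10 stood at 21.6, 21.8 and 20.9 CPM in the Dia2 replicates, against 32.0, 32.8 and 31.0 CPM in the control replicates (-0.57 ± 0.06, edgeR adjusted p = 3.18e-06). After Psmc4 these were the largest falls of the 48 genes, and their groups were far apart relative to the spread. Psmd9 stood at 21.4, 20.5 and 21.5 CPM in the Dia2 replicates, against 30.0, 28.1 and 28.1 CPM in the control replicates (-0.44 ± 0.06).

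Of 4 chaperones of the core particle 2 were lower and 2 did not pass, where 29.9% of all genes tested were lower. The Psmg genes encode PAC proteins, which act as a PAC1 and PAC2 pair (Psmg1, Psmg2) and a PAC3 and PAC4 pair (Psmg3, Psmg4) in alpha ring assembly. Psmg1 and Psmg3 were lower, at -0.43 ± 0.06 (edgeR adjusted p = 4.56e-05) and -0.45 ± 0.07 (0.000109). Their partners Psmg2 and Psmg4 did not pass, at -0.01 ± 0.07 and 0.01 ± 0.13. Psmg2 averaged 23.5 ± 1.9 CPM in the Dia2 libraries and 23.7 ± 1.01 CPM in the control libraries (SD, n = 3 each), and Psmg4, the scarcest chaperone, 5.56 ± 0.494 and 5.50 ± 1.01 CPM. In each pair 1 member passed and 1 did not, but 4 genes are too few to set this apart from the share of all genes. The difference between partners was not tested. Psmc3ip, which is no subunit, averaged 6.26 ± 0.584 CPM in the Dia2 libraries and 6.34 ± 0.351 CPM in the control libraries (-0.02 ± 0.09, edgeR adjusted p = 0.862).

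Among 27 related genes of the ubiquitin and proteasome pathway that the symbol rule leaves out, 10 were lower, 6 were higher and 11 did not pass. The share that passed in either direction was near the 59.2% of all genes tested (29.9% lower, 29.3% higher). The regulator Nfe2l1 rose, whereas most subunit genes fell. Nfe2l1 stood at 342, 351 and 354 CPM in the Dia2 replicates, against 260.2, 256 and 241 CPM in the control replicates (log2 fold change 0.47 ± 0.05, edgeR adjusted p = 3.67e-06). Nfe2l2, which encodes Nrf2, the related factor of the oxidative stress response, stood at 89.0, 86.8 and 88.9 CPM in the Dia2 replicates, against 122, 122 and 120.0 CPM in the control replicates (-0.46 ± 0.04, edgeR adjusted p = 1.46e-06). The groups were apart for both genes, in opposite directions. Nrf1 protein is held in the ER membrane and cut before it acts, so its mRNA is not a measure of its activity.

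Cap subunits outside the symbol rule also differed. Adrm1 (Rpn13), a ubiquitin receptor of the base, stood at 75.9, 81.3 and 79.2 CPM in the Dia2 replicates, against 124, 118 and 98.9 CPM in the control replicates (-0.53 ± 0.07, edgeR adjusted p = 5.19e-05). Uchl5, the deubiquitinase that Adrm1 recruits, fell at -0.46 ± 0.07. Sem1, the smallest lid subunit, rose at 0.22 ± 0.04 (edgeR adjusted p = 0.000805), with 118, 118 and 121 CPM in the Dia2 replicates, against 98.7, 105 and 102 CPM in the control replicates. Pomp, the chaperone that completes the beta rings, fell at -0.21 ± 0.04 (edgeR adjusted p = 0.00146). The ER degradation gene Sel1l and the ubiquitin shuttle Ubqln1 rose at 0.56 ± 0.05 and 0.49 ± 0.04, whereas Ubqln2 fell at -0.32 ± 0.05.

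**Figure D4:**
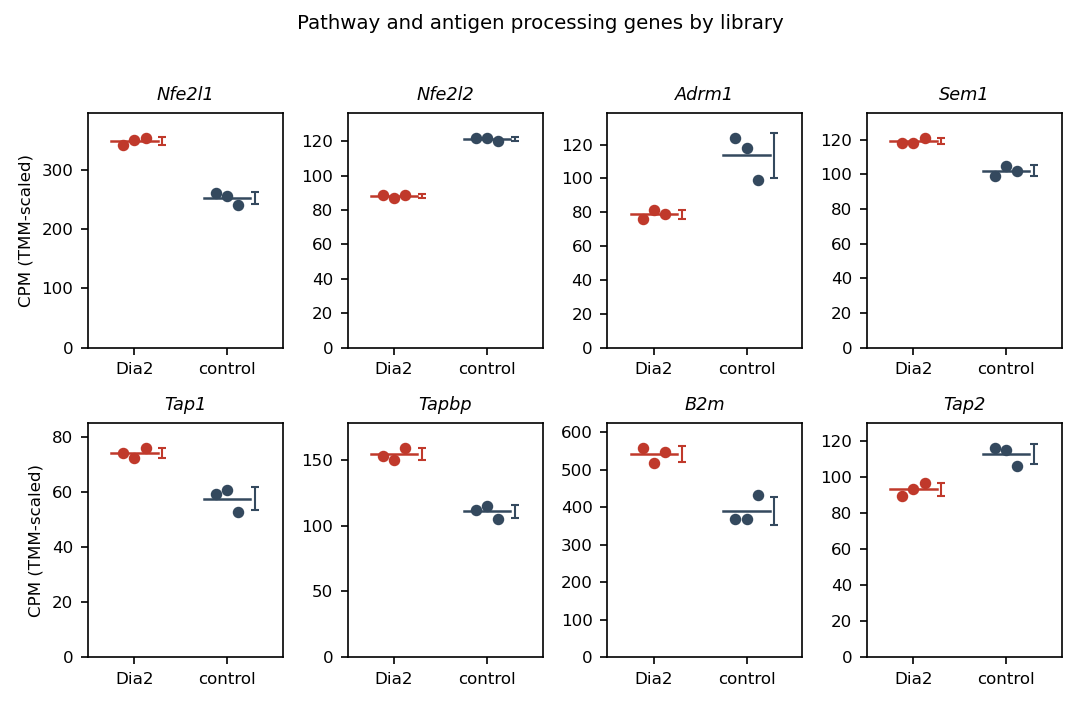
CPM (TMM-scaled, vertical axis from 0) of 4 pathway genes (top) and 4 antigen processing genes (bottom) in each library; lines mark means and bars the SD of 3 libraries. Dia2 libraries lie above the control libraries for Nfe2l1, Sem1, Tap1, Tapbp and B2m, and below them for Nfe2l2, Adrm1 and Tap2.

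Of 8 genes of MHC class I antigen processing and its regulation 5 were higher and 2 lower, where 29.3% and 29.9% of all genes tested were so. B2m, the light chain of MHC class I, stood at 559, 518 and 549 CPM in the Dia2 replicates, against 369, 370.3 and 434 CPM in the control replicates (0.47 ± 0.06, edgeR adjusted p = 5.41e-05). Tapbp, which loads peptides onto class I molecules, rose at 0.48 ± 0.05, the peptidase gene Erap1 at 0.46 ± 0.06 and the class I regulator Nlrc5 at 0.67 ± 0.13. Tap2, the partner chain of Tap1, stood at 89.1, 93.3 and 96.6 CPM in the Dia2 replicates, against 116, 115 and 106 CPM in the control replicates, without overlap (-0.27 ± 0.05, edgeR adjusted p = 0.000546). H2-D1 also fell at -0.19 ± 0.07 (edgeR adjusted p = 0.0266), a call lost without either of Dia2 replicates 1 and 2 or of control replicates 1 and 2 (adjusted p of 0.0883 to 0.11). Of 13 interferon response genes tested 4 were higher and 1, Rsad2, lower. The higher share was near the 29.3% of all genes tested and the lower share below their 29.9%. The count of higher genes was 0 without Dia2 replicate 1 or control replicate 2 and 2 without Dia2 replicate 3 or control replicate 3. The lower genes numbered 2 without Dia2 replicate 1. Irf1, which drives Psmb9 under interferon, did not pass (-0.07 ± 0.06, edgeR adjusted p = 0.331).

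Psmb9 and Tap1, neighbours in the MHC region, start back to back, and Tap1 was higher whereas Psmb9 did not pass. In the deposited table Psmb9 spans chr17:34182099-34187330 and Tap1 chr17:34187556-34197225 (read as GRCm38), with 225 bases between them. Tap1, a chain of the transporter that carries peptides into the ER, stood at 74.3, 72.4 and 76.2 CPM in the Dia2 replicates, against 59.4, 60.7 and 52.8 CPM in the control replicates, without overlap (0.37 ± 0.06, edgeR adjusted p = 0.000146). The difference between the neighbours was not tested. Their 300-base promoter windows in the RefSeq table (250 bases before the start and 50 after it, GRCm38.p6) share 275 bases. The Tap1 window, chr17:34187306-34187605 on the plus strand, is shown because it holds the stretch from which both genes start, with a CCAAT word in capitals.
Tap1 and Psmb9: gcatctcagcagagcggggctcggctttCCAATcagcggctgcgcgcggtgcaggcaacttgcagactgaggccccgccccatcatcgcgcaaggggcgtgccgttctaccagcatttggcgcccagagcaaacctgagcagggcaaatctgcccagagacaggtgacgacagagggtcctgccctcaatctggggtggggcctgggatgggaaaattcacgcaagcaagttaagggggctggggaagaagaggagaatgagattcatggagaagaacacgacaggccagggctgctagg

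Promoter windows were found for 40 of the 48 genes and were searched on both strands. The word TGACNNNGC, the core of the antioxidant response element that Nrf1 and Nrf2 bind, was in 6 of 40 (15%), against 14% of all 27025 genes in the table. CCAAT, bound by NF-Y, was in 14 (35%), against 41.1% of all. The interferon response word (GAAA, any pair of bases, GAAA) was in 5 (12.5%), against 3.99% of all. These were Psmb3, Psmd4, Psmd9, Psme1 and Psmg4, none of them an induced subunit of the immunoproteasome. No word overlapped another in the windows shown. Psmb5 (chr14:54617946-54618245, minus strand) and Psmb6 (chr11:70525107-70525406, plus strand) are shown because these catalytic genes fell and hold TGACNNNGC, 47 to 39 and 9 to 1 bases before the start. Psme1 (chr14:55578244-55578543, plus strand) is shown because it fell while Psme2 did not pass, and it holds the interferon response word on the other strand at bases 10 to 19 after the start is counted as 1. Capitals mark these words, which are matches of letters only.
Psmb5: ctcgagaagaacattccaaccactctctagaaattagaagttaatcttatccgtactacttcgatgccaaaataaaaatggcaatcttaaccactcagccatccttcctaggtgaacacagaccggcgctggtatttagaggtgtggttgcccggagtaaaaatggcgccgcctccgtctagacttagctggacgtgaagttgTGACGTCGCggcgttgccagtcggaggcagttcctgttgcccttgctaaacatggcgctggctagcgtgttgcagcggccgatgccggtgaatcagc
Psmb6: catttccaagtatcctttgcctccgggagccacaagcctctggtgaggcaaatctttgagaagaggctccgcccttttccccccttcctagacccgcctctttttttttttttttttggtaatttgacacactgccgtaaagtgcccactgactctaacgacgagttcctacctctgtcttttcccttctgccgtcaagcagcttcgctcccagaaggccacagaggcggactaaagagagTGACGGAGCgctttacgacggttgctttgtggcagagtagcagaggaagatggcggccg
Psme1: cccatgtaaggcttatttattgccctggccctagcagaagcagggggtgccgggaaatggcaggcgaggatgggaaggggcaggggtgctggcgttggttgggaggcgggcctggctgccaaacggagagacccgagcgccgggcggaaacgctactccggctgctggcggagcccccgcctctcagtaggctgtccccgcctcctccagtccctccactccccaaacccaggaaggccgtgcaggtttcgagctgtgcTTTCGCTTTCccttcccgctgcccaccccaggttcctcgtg

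Proteasome transcripts have short 3′ UTRs, with a median of 282 bases against 1181 for the tested genes (longest annotated form, GENCODE M21). Of the 48 genes, Psmb1 and Psmc6 (4.17%) hold TATGTGA or ATGTGAA there, against 24.6% of tested genes, and both were lower. Only Psmd11 of the 48 holds GCAGTAC (6.14% of tested genes), and only Psma2 holds AACTTAA, the target of bases 2 to 8 of the siRNA's antisense strand (13.8% of tested genes). The first 3 words were picked in earlier work on these fold changes. Psmc4, Psmd5, Psmd10, Psmb6 and Psmb5, which had the largest falls, hold none of the 4 in their annotated 3′ UTRs. The part of these words in the changes was not tested.

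Counts of a few members share a locus with another gene, and no strand setting is given. Psma3, Psma4, Psmd1 and Psme1 overlap another gene in the table, whose counts reached at most 336 in any library, against at least 2700 for these members. Psmc3ip overlaps Mlx by 67 bases, and Mlx had up to 2062 counts, so the Psmc3ip values are uncertain. Several members have pseudogene copies elsewhere in the genome, and nothing read here says how ambiguous reads were counted.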

How the data were processed

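Total RNA of 6 libraries, 3 per siRNA, was sequenced. The authors deposited 1 table of 23358 genes with counts and RPKM for each library. Per the submitters' processing notes, reads passed through bcl2fastq, TopHat2 2.0.6 and HTSeq; these notes name the human builds hg19 and GRCh37, but the symbols and coordinates are those of mouse, and 99.3% of 20762 symbols found in RefSeq's GRCm38.p6 table overlap the gene of that name. The deposited counts are all even, so a count of 2 may be 1 fragment; the 4858 genes with no count in any library were not tested. The floor of 6 counts (3 fragments) is 0.0545 to 0.0851 CPM, for counting error only. The deposited RPKM equal count over length and a total of which the listed genes hold 82.6% to 85.8%; these were used for levels between genes and shares.

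Counts were fitted in R 4.3.3 with edgeR 4.0.16 (filterByExpr, TMM, robust quasi-likelihood test) on the whole table, with Benjamini-Hochberg adjustment over 14151 genes and a threshold of 0.05. The SE of a log2 fold change is its size over the square root of F. Alternatives used DESeq2 1.42.0, limma 3.58.1 (voom), other scalings and filters, a replicate block and leaving out libraries; halved counts, leaving out Rn45s and Lars2 and leaving out the libraries richest in Rn45s were chosen after seeing the data. Shares were compared by an exact two-sided permutation test over 20 arrangements. The members, the gene lists (related, antigen processing, interferon, mesenchymal, blood and endothelial) and the tests were chosen with earlier results of these data known. Genes named in full are the catalytic, induced and PA28 genes and the 5 largest falls past the threshold (Psmc4, Psmd5, Psmd10, Psmb6 and Psmb5); other members are named by role, and listed genes by role or among the 4 largest changes per direction. No 2 libraries of a group were alike within counting noise. The values of 1 interferon response gene and 1 promoter word are not reported here.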

Additional observations from a re-analysis of the deposited data

How the results depend on the processing

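The count of lower proteasome genes was 35 to 39 over all alternatives, where 22.8% to 33.2% of all genes in each fit were lower. No call was reversed. Upper-quartile scaling gave 35, shifted the median log2 fold change of all genes from 0.005 to 0.040 and lost Psmb1 and Psme3. With the replicate number as a block the count was also 35, without the same 2 genes; deviations of same-numbered libraries correlated at 0.0036, -0.00137 and -0.0844, so the numbers were not taken as pairs. Leaving out 1 library gave 35 to 38 lower and 0 to 2 higher (0 to 1 in the core and 0 to 1 in the regulatory genes). With Dia2 replicate 1 and control replicate 3 both left out, 39 were lower and 1, a regulatory gene, higher. DESeq2 and limma-voom each gave 37 lower and 0 higher. The Psmb10 share differed by -0.0801 percentage points between groups, and by -0.318 to 0.109 without 1 library, with the sign turned without Dia2 replicate 2 (0.0768) or control replicate 2 (0.109). Antigen processing genes that were lower numbered 1 in place of 2 with upper-quartile scaling, with no composition factor, with the replicate block and in 4 fits without 1 library (range 1 to 2). Lower interferon genes numbered 0 with a mean CPM of at least 1, 2 with the replicate block and 1 to 2 without 1 library. Higher interferon genes numbered 2 with no composition factor, 1 without the libraries richest in Rn45s and 0 to 5 without 1 library. The cause of these changes was not tested. At these depths every constitutive subunit had at least 5050 counts in each library, so counting error was small for them, whereas Psmb11 had 28 to 62.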

Other observations

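Of 13 interferon response genes tested, 10 were highest in replicate 1 in both groups, and 11 of the 48 proteasome genes were so, Psmb9 among them. The share of all genes tested with this order was not counted, so neither count can be set against a background. Isg15, a ubiquitin-like modifier, stood at 9.38, 3.67 and 4.83 CPM in the Dia2 replicates, against 11, 5.48 and 6.53 CPM in the control replicates. Ifit1, which binds viral RNA, stood at 9.30, 4.56 and 5.54 CPM in the Dia2 replicates, against 7.17, 3.65 and 3.86 CPM in the control replicates. Usp18, which removes Isg15 from proteins, stood at 7.07, 3.27 and 3.91 CPM in the Dia2 replicates, against 7.64, 3.58 and 3.19 CPM in the control replicates. The groups overlapped for all 3 genes. The labels do not say that libraries of the same number share a culture or a day.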
